A study of Caenorhabditis elegans with 2 samples.

Results

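The 390 ChIP-seq peaks described here lay at transfer RNA (tRNA) genes of Caenorhabditis elegans. They were taken from a list of 28882 peaks called on both replicates together (the pooled list), and a peak was included when its summit lay within 200 bp of a nuclear gene annotated as tRNA in Ensembl WBcel235 (the ce11 assembly). This distance alone chose the members, so their signal, rank and place along the gene were free to vary. The annotation holds 612 nuclear tRNA genes, of which 384 (62.7%) had at least 1 of these peaks. In the study, chromatin from strain OP615 was precipitated with an anti-GFP antibody. OP615 carries unc-119(tm4063) III and the integrated transgene wgIs615, which expresses the protein Y22D7AL.16 fused at its C terminus to a GFP-FLAG tag. The embryos were late, of mixed sex, and taken 4.5 h after bleaching of eggs had synchronized the culture, in 2 biological replicates that form 1 group. No precipitation from embryos without the tag and no control library was analysed here, so none of the values below separates the tagged protein from enrichment that does not depend on it.

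RNA polymerase III transcribes tRNA genes from a promoter inside the gene. The factor TFIIIC binds the A box near the 5′ end and the B box in the stretch that encodes the T loop, and it places TFIIIB just upstream of the gene, where TFIIIB recruits the polymerase. Most tRNAs are encoded by many genes of identical sequence, scattered singly or in small clusters, and worms carry a large share of them on X.

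The sequences below, from the RefSeq copy of WBcel235, show the gene at the strongest peak, 4 more genes among those of the 12 strongest peaks, the selenocysteine tRNA gene, and 4 copies of 1 alanine tRNA gene. Each is read along the strand of the gene, from 30 bases before it to 20 bases after it. Capitals mark, in order, the match to the A box consensus where 1 was found in the first 25 bases, the anticodon, and the B box letters, which were GTTCGA or one of its variants GTTCAA and GATCGA.
C04A11.t1: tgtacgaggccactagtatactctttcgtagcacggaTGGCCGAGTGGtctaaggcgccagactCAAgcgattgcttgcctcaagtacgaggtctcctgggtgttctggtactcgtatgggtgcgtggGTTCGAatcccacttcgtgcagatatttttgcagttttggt
F57F5.t1: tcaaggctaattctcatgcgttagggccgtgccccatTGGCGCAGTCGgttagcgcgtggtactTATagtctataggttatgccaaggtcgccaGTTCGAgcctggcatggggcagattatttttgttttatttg
ZC455.t1: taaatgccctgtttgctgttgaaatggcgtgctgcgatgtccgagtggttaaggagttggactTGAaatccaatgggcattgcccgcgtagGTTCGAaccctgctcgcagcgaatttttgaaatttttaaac
F29C4.t1: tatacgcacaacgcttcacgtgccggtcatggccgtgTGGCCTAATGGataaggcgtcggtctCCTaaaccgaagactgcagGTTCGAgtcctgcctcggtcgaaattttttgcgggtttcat
C02B4.t2: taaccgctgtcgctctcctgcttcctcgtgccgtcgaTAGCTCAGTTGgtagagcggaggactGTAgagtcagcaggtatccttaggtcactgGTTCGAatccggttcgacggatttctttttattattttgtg
K11H12.t1: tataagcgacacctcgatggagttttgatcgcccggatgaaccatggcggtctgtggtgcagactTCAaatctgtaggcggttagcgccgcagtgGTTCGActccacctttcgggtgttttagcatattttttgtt
F15B9.t1: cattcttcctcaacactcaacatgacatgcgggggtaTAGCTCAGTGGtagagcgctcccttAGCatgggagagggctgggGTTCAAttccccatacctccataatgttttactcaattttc
ZK622.t1: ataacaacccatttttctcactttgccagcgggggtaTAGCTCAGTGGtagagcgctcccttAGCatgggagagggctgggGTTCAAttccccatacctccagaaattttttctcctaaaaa
F49C5.t2: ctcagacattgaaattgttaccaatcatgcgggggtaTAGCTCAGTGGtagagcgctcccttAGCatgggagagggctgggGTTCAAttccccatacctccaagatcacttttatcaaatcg
C56G3.t1: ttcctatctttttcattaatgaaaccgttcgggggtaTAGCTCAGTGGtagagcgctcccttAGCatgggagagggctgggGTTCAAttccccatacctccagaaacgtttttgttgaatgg
The first 5 genes encode tRNAs for leucine, isoleucine, serine, arginine and tyrosine, and the sixth the selenocysteine tRNA. In ZC455.t1 and K11H12.t1 no A box match was found in the first 25 bases. The last 4 are copies of the alanine tRNA gene with anticodon AGC, which are identical from their first to their last base and differ in the flanks. F15B9.t1 and ZK622.t1 had strong peaks, whereas F49C5.t2 and C56G3.t1 had no pooled peak. Over all 612 tRNA genes, the B box letters were found on the gene's own strand in 603 (98.5%) and the A box consensus in 565 (92.3%), most often starting at position 52 and position 8.

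The peaks at tRNA genes were concentrated at the top of the pooled list. Column 7 of the deposited lists, called signal here, measures a peak's enrichment on the scale of the authors' caller, which is not stated, and is used only to rank peaks within a list. Over the 390 members the signal ran from 27.2 to 427 with a median of 68.4, against a median of 35.5 over all 28882 pooled peaks. Their median rank was 875, which is the top 3.03% of the list, and 239 of them (61.3%) stood among the top 10% of peaks. At the other end, 60 members (15.4%) had a signal below the median of the list. The authors' thresholded list, made from the agreement between replicates, holds 469 peaks, which are the 469 of highest signal in the pooled list. It held 160 of the 390 members (41.0%, exact Clopper-Pearson 95% interval 36.1 to 46.1), against 1.62% of all pooled peaks. Members thus made up 34.1% of the thresholded peaks and 0.809% of the pooled peaks outside that list. Intervals here and below cover counting error only.

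Members were not spread evenly within the thresholded list. Of the first 50 peaks 17 (34.0%) lay at tRNA genes, of the next 50 there were 24 (48.0%), and of ranks 101 to 200 there were 46 (46.0%). The share was 31% for the next 100 and 32% for the 100 after those. It fell to 14.5% for ranks 401 to 469, 7.34% for ranks 470 to 1000, 2.70% for ranks 1001 to 2000 and 0.429% beyond rank 10000. The decline thus started before the authors' threshold. The last member inside it was a second peak at C04A2.t1, a leucine tRNA gene on II (signal 83.7, rank 459), and the first outside was the peak at F52E10.t5, a glutamate tRNA gene on X (82.8, rank 470).

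**Figure D1:**
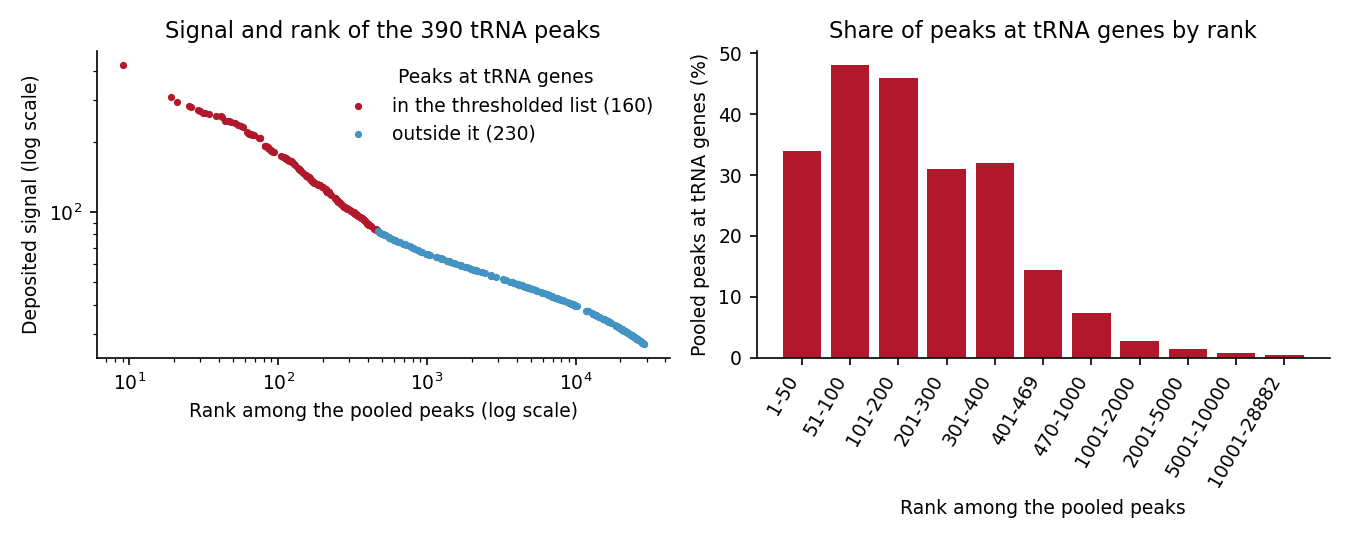
Left, deposited signal against rank in the pooled list for the 390 peaks at tRNA genes, on log axes, with the 160 in the thresholded list in red and the 230 outside it in blue. Right, percent of pooled peaks that lay at a tRNA gene in successive bands of rank. The share was 48.0% for ranks 51 to 100 and 0.429% beyond rank 10000.

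The strongest member lay at C04A11.t1, an intron-containing leucine tRNA gene with anticodon CAA (chrX:13665555-13665673, + strand, 119 bp, intergenic). Its signal was 427 in the pooled list (rank 9), 235 in replicate 1 (rank 11) and 183 in replicate 2 (rank 9). It is the only gene of its sequence, and its summit lay at position 20, counted from 1 at the first base of the gene. The second, at the glutamate tRNA gene C28G1.t1 on X, had signals of 162 in replicate 1 and 142 in replicate 2 (pooled 309, rank 19), with the summit 25 bp before the gene. The third, at the cysteine tRNA gene C37A2.t1 on I, had 159 and 139 (pooled 297, rank 21) and lay in an intron of cye-1, which encodes cyclin E. F57F5.t1, an isoleucine tRNA gene with anticodon TAT and an intron (chrV:12002176-12002260, + strand), had 152 and 129 (pooled 284, rank 25).

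All 12 of the strongest members ranked no lower than 45 in replicate 1 and no lower than 50 in replicate 2. They covered the isoleucine genes C42D8.t1 (282) and T21B4.t1 (269) with anticodon AAT, the asparagine gene F41D9.t3 (273), the glycine gene M02F4.t1 (266), the lysine gene W03G11.t1 (266), the serine gene ZC455.t1 (263), the arginine gene F29C4.t1 (258) and the tyrosine gene C02B4.t2 (257). The summit lay inside the gene in 10 of the 12, and over the 12 its position ran from -25 to 30. 7 of the 12 were on X, 1 had another tRNA gene within 1000 bp, 5 were intergenic, 6 lay in an intron of a protein-coding gene and 1 overlapped an exon.

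Peaks were found at tRNA genes of every amino acid. For each of 21 amino acids, selenocysteine included, at least 1 gene had a thresholded summit within 200 bp. Counted by gene, this held for 174 of 612 tRNA genes (28.4%, exact 95% interval 24.9 to 32.2), against 2.39% of the 31527 annotated nuclear genes other than piRNA genes. That wider set includes the tRNA genes themselves and genes of any length. Among amino acids with more than 1 gene, the share was highest for alanine (14 of 34 genes, 41.2%, interval 24.6 to 59.3) and glutamate (16 of 41, 39.0%, 24.2 to 55.5). It was lowest for tryptophan (2 of 12, 16.7%, 2.09 to 48.4) and glutamine (5 of 27, 18.5%, 6.30 to 38.1). All of these intervals include the share of 28.4% over all tRNA genes, so the order of the amino acids was not resolved by these numbers of genes. The anticodon could be assigned from the sequence in 593 of the 612 genes, giving 47 anticodons, of which 44 had a gene with a thresholded summit. The exceptions were arginine CCG (0 of 2 genes), arginine GCG (0 of 1) and glycine CCC (0 of 3). Among the 23 anticodons with 10 or more genes, the share ran from 15.8%, for arginine ACG and valine AAC with 3 of 19 genes each, to 47.1% for glutamate TTC with 8 of 17.

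**Figure D2:**
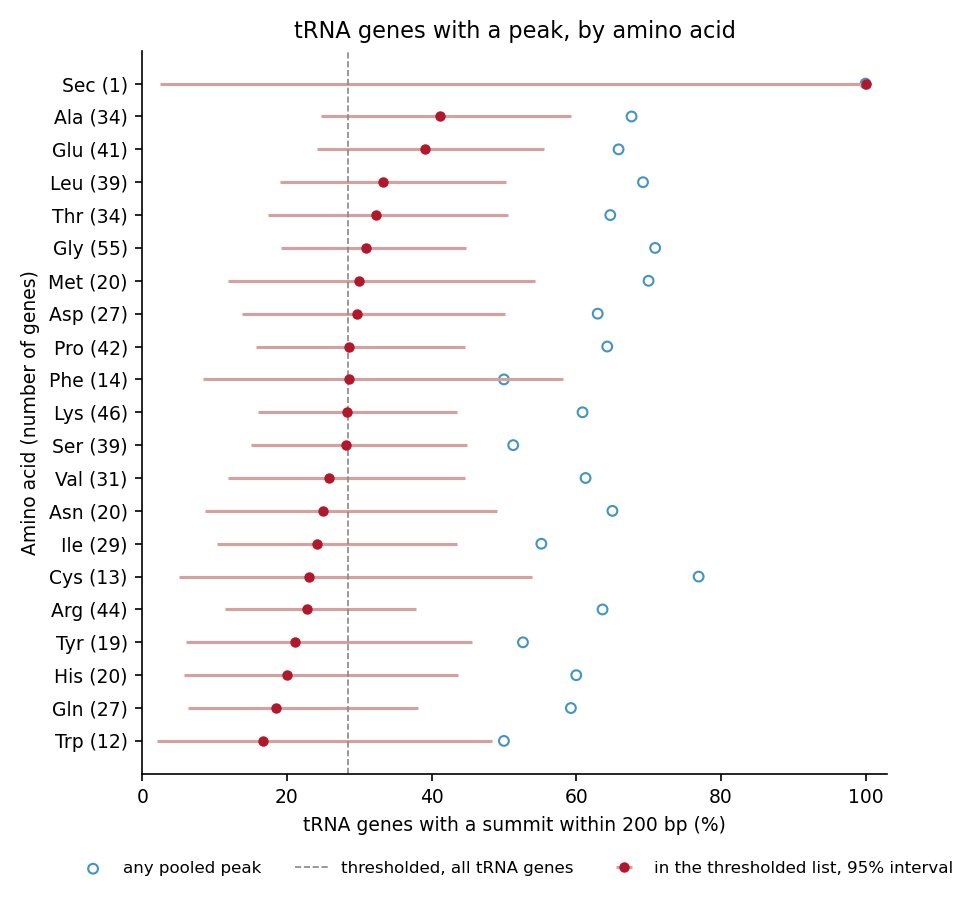
Percent of the tRNA genes of each amino acid with a summit within 200 bp; filled points are thresholded summits with their exact 95% intervals, open points any pooled peak, and the dashed line is the thresholded share of 28.4% over all 612 genes. The number of genes is given in brackets. Every interval crosses the dashed line.

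The strongest members of the amino acids not yet named lay at F15B9.t1 for alanine (signal 255), R04D3.t2 for valine (244), B0523.t1 for tryptophan (244), T23F1.t2 for proline (220), F38G1.t2 for aspartate (214), R01H5.t1 for threonine (213), F22F1.t6 for methionine (207), C06G1.t1 for histidine (207), R04A9.t1 for glutamine (169) and T28B4.t1 for phenylalanine (167). All of these ranked among the top 117 pooled peaks, and only the strongest member for selenocysteine ranked lower.

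The selenocysteine tRNA gene K11H12.t1 (chrIV:658181-658266, + strand), which decodes UGA in selenoprotein messages and is present as 1 gene, had a signal of 88.7 in the pooled list (rank 398). The replicates differed there, with a signal of 34.9 and rank 2307 in replicate 1 and a signal of 46.2 and rank 301 in replicate 2. Its summit lay at position 74 of 86, near the 3′ end of the gene.

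Of the 12 tryptophan tRNA genes, several carry names from nonsense suppressor mutations in their anticodons. The strongest peak was at B0523.t1 (sup-5, III), with signals of 139 in replicate 1 and 105 in replicate 2 (pooled 244, rank 47) and the summit at position 13. The peak at C03B1.t1 (sup-7, X) had 69.2 and 61.2 (pooled 134, rank 175). At C48C5.t6 (sup-28, X) the pooled signal was 81.5 (rank 484), just outside the thresholded list, and at C06E2.t1 (sup-21, X) it was 37.6 (rank 11957). No pooled peak lay at the genes of sup-24, sup-29, sup-33 or rtw-6. These 8 genes have the same sequence, so the difference in signal between them was found at identical gene bodies.

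The same spread was seen in every large family of identical genes. There were 24 sequences with 9 or more copies, 353 genes in all, and in each of the 24 some copies but not all had a thresholded summit, from 18.2% of the 11 copies of histidine GTG to 53.3% of the 15 copies of alanine AGC. In these counts a summit within 200 bp was taken even where another tRNA gene lay nearer to it. Among those 15 alanine copies, 13 had a pooled peak and 8 a thresholded one. For F15G9.t2 (X) and C52E12.t3 (II) the thresholded peak lay nearest a neighbouring tRNA gene of another sequence. The peak with its summit inside F15G9.t2 had a signal of 76.4 (rank 584), outside the thresholded list. F15B9.t1 (V, in an intron of inft-2) had a pooled signal of 255 (134 in replicate 1 and 121 in replicate 2), ZK622.t1 (II) of 207, T18D3.t1 (X) of 125 and M03A1.t1 (II) of 32.5. F49C5.t2 (II) and C56G3.t1 (X), whose sequences are printed above, had no pooled peak. Between 83.9% and 93.9% of the 50-base words within 200 bp of these copies occur once in the genome.

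By number of copies, 29 of 143 genes with a sequence of their own had a thresholded summit (20.3%), against 145 of 469 genes with at least 1 identical copy (30.9%). The difference was -10.6 percentage points (Newcombe 95% interval -17.8 to -2.28). Genes with the commonest sequence of their anticodon had a thresholded summit in 135 of 423 cases (31.9%), and genes with any other sequence in 39 of 189 (20.6%), a difference of 11.3 points (3.65 to 18.2). This second split was made after the values were seen. Its 189 other genes include the 19 genes with no anticodon assigned, and the difference without those was not computed. Where sequences tied as commonest, as for methionine CAT with 9 copies each, only 1 was taken as the commonest.

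The tRNA-like sequences that RefSeq marks as pseudogenes had a strong peak less often than the tRNA genes did. Of 209 tRNA pseudogenes, 51 (24.4%) had a pooled peak within 200 bp and 3 (1.44%, 0.297 to 4.14) a thresholded one, against 62.7% and 28.4% of the tRNA genes. The interval of the thresholded share includes the 2.39% over annotated nuclear genes other than piRNA genes. For pooled peaks the share over annotated genes is not given here. The 3 pseudogenes were D1046.t1 on IV (signal 242, rank 50), C52E12.t1 on II (157, rank 135) and T08B2.t1 on I (125, rank 209). In each of the 3 the summit lay inside the pseudogene, with no tRNA gene within 200 bp, and the peaks ranked 56, 110 and 207 in replicate 1 and 46, 214 and 184 in replicate 2.

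Of the 603 tRNA genes with the B box letters, 173 had a thresholded summit (28.7%), against 1 of the 9 genes without them (11.1%), of which 4 had a pooled peak. The difference of 17.6 points had an interval from -15.0 to 27.4, so 9 genes did not resolve it. The 1 thresholded gene was Y69A2AR.t2, a glutamate tRNA gene on IV with a signal of 130 (rank 187), 49.1 in replicate 1 and 82.1 in replicate 2. In windows of 72 bases, the median tRNA gene length, centred on the summits and read on both strands, the B box letters were found at 64 of 160 thresholded members (40%), against 31 of 309 other thresholded peaks (10.0%). The A box consensus was found at 101 of the 160 (63.1%), against 52 of 309 (16.8%). Over the 28492 pooled peaks away from tRNA genes these shares were 9.15% and 8.72%. These letters belong to the tRNA genes by which members were chosen, so the counts only describe where in the gene the windows fell.

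Summits lay at the 5′ part of the gene more often than at its 3′ part. Over the 160 thresholded members the median position was 18.5 (quartiles 4.5 and 46.5), at the end of the A box, in genes with a median length of 72 bp. The summit was inside the gene in 115 (71.9%), upstream in 34 and downstream in 11, and 155 (96.9%) lay within 50 bp of the gene. Over the 230 members outside the thresholded list the median was 31 with a wider spread (quartiles -23.5 and 98.5). In that group 83 (36.1%) were inside the gene and 55 lay more than 100 bp away, against 2 of the thresholded members. Signal was also lower farther from the gene: the median was 95.5 for the 198 summits inside a gene, 72.2 for 103 at 1 to 50 bp, 44.9 for 32 at 51 to 100 bp, 38.7 for 30 at 101 to 150 bp and 41.0 for 27 at 151 to 200 bp.

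**Figure D3:**
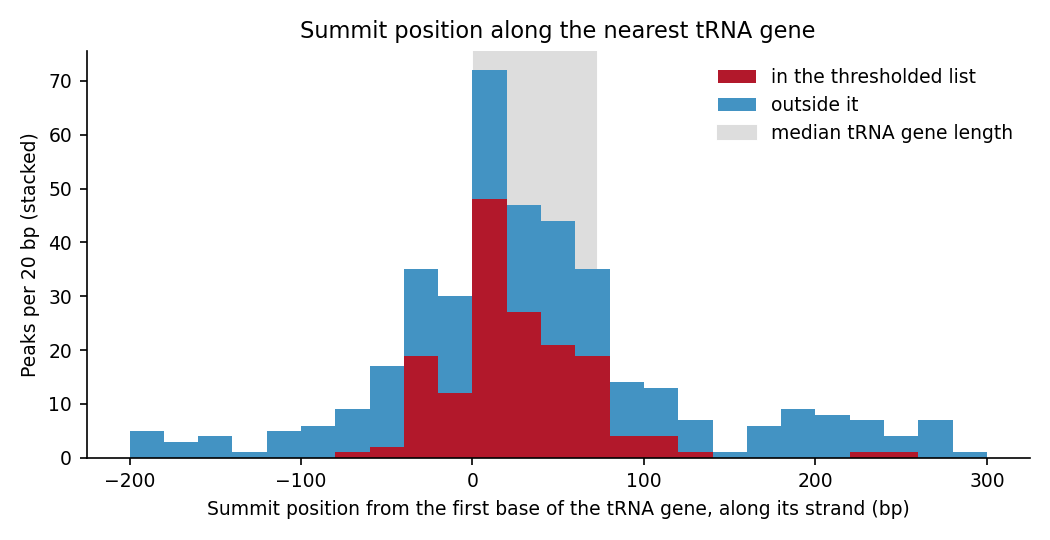
Number of member peaks by summit position along the nearest tRNA gene, in bins of 20 bp read on the strand of the gene, with thresholded members in red and the others stacked on them in blue. The grey band spans the median gene length of 72 bp. The thresholded members peak just inside the 5′ end, and their median position was 18.5.

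Among thresholded members, summits lay farther into the gene at unique than at repeated genes. The median was 40.5 (quartiles 18.5 and 60.3) at 26 peaks on genes with a sequence of their own, and 16.5 (quartiles 1.25 and 41.8) at 134 peaks on genes with identical copies. Upstream summits made up 1 of the 26 and 33 of the 134. Over all members the medians were closer, 34 (quartiles 2 and 84) at 73 peaks nearest unique genes and 22 (quartiles -14 and 64) at 317 peaks nearest repeated genes, and the quartiles overlapped widely. With only unique genes annotated, the median over the peaks within 200 bp of one was 24 (95% interval 15 to 46), against 22 (17 to 32) over the 390 members. A read that falls wholly within a repeated gene cannot be assigned to 1 copy: of the 469 repeated genes, none holds a 50-base word that is single-copy in the genome, whereas the median was 100% for the 143 unique genes. No source used here gives the read length or how reads with several places were handled, and the part of read placement in these positions was not tested. In 378 of the 390 members (96.9%) the summit was the centre of the peak, and 377 peaks were 380 bp wide, so the width carries no further information on the extent of binding.

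Some of the weaker members were second peaks beside a stronger one. Of the 390, 41 were not the strongest member at any gene within their reach, with a median signal of 41.0 and a median distance of 135 bp from the gene, against 76.7 and 0 bp for the other 349. Of the 41, 1 was in the thresholded list, the peak 142 bp beyond the 3′ end of C04A2.t1. Among thresholded members, 15 lay within 200 bp of 2 tRNA genes, and the 174 genes with a thresholded summit rest on 160 peaks.

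The share of genes with a thresholded summit was close in introns and between genes. The 283 tRNA genes in introns had a thresholded summit in 79 cases (27.9%), and the 319 intergenic ones in 91 (28.5%). The difference was -0.611 points (-7.75 to 6.60), an interval that leaves room for a difference of several points either way. The remaining 10 genes overlapped an exon, and 4 of them had a thresholded summit. Within introns, 37 of 122 genes on the strand opposite to the host (30.3%) and 42 of 160 on the same strand (26.3%) did. The difference was 4.08 points (-6.37 to 14.7), a split made after the values were seen. The 191 intronic members lay in 161 host genes. Those of the 5 strongest were cye-1, sulp-3, the collagen genes col-85 and col-99, and ZC455.1, in the last 4 of which the tRNA gene runs on the opposite strand. The host acr-18 held 2 thresholded members, the stronger with a signal of 188. Some summits also lay in a protein-coding promoter, taken as 500 bp before to 100 bp after a 5′ end. This held for 46 of the 390 members (11.8%) and 24 of the 160 thresholded ones (15%). Those at C28G1.t1, F57F5.t1 and the selenocysteine gene K11H12.t1 were among them. The same share over all pooled peaks is not given here.

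Over all chromosomes together, a smaller share of clustered than of isolated tRNA genes had a thresholded summit, and the difference was resolved on X but not on the autosomes. A gene with another tRNA gene within 1000 bp was called clustered, which gave 236 genes in 100 clusters and 376 isolated genes. A thresholded summit lay at 48 of the 236 clustered genes (20.3%, 15.4 to 26.0), against 126 of the 376 isolated genes (33.5%, 28.8 to 38.5). The difference was -13.2 points (-19.9 to -5.94). It was -21.9 points on X (-31.9 to -11.3) and -6.02 points on the autosomes (-15.5 to 4.66), a split made after the values were seen, and whether these differ from each other was not tested. On V the share was 14.3% of 14 clustered genes, against 12.5% of 64 isolated ones, while on each other chromosome it was lower for clustered genes. With clusters defined at 500 bp the difference over all chromosomes was -7.60 points and its interval reached 0 (-14.8 to 0.410). The share was lower in larger clusters, with 10.0% of the 80 genes in clusters of 3 or more, against 25.6% of 156 genes in pairs. Counted by cluster, 32 of the 100 (32%) had a thresholded gene, close to the 33.5% of isolated genes. The 48 clustered genes rest on 33 thresholded peaks, and the intervals treat genes that share a peak as separate. A lower share in clusters was seen for 16 of the 20 amino acids with genes of both kinds. With only the 582 genes in which at least 70% of the 50-base words within 200 bp are single-copy, the shares were 21.8% of 220 clustered genes and 34.8% of 362 isolated ones. The other 30 genes, below that level, had no thresholded summit, 0 of 30, an exact upper bound of 11.6%.

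The 2 densest clusters, with 6 genes each, were both on X and intergenic. Of the 6 genes at chrX:8154445-8156707 (F22F1.t2 to F22F1.t7, for serine, aspartate, methionine and isoleucine), the methionine gene F22F1.t6 had the only peak, with signals of 120 in replicate 1 and 83.6 in replicate 2 (pooled 207, rank 74). The cluster at chrX:14135045-14137010 holds 6 identical histidine genes in 3 convergent pairs (F28H6.t2 to F28H6.t7). Of these, F28H6.t5 had a pooled signal of 40.1 and F28H6.t2 of 34.3, both far below the threshold. Around the histidine genes the share of single-copy 50-base words ran from 8.51% to 88.7%, and around the F22F1 genes from 80.1% to 93.6%. The part of read placement in the low values of the histidine cluster was not tested.

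X holds 276 of the 612 tRNA genes (45.1%), and the share of its genes with a thresholded summit did not differ from that of the autosomes beyond counting error, although it did among the strongest peaks. A thresholded summit lay at 80 of the 276 genes on X (29.0%, 23.7 to 34.7), against 94 of the 336 autosomal genes (28.0%, 23.2 to 33.1), a difference of 1.01 points (-6.11 to 8.22). With only the 234 strongest peaks counted, the difference was 7.32 points (1.32 to 13.5). Clustering differed between the 2 sets, with 48.9% of the genes on X and 30.1% of the autosomal genes in clusters. Among isolated genes the share was 39.7% of 141 on X, against 29.8% of 235 on autosomes, a difference of 9.93 points (0.0840 to 19.8). Among clustered genes it was 17.8% of 135 on X, against 23.8% of 101 on autosomes (-5.98 points, -16.7 to 4.31). Both of these splits by clustering were made after the values were seen. By amino acid, the share was higher on X for 12 of the 20 with genes on X and autosomes, and lower for 8.

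The autosomes differed among themselves. Chromosome V had the lowest share, with 10 of 78 genes (12.8%, 6.32 to 22.3), against 164 of the 534 genes elsewhere (30.7%, 26.8 to 34.8), a difference of -17.9 points (-24.9 to -7.96) that was computed after the values were seen. The share was lower on V for 16 of the 19 amino acids with genes on V and elsewhere. Clusters held 17.9% of the genes on V, the lowest share of any chromosome. Among isolated genes the difference was -25.3 points (-33.5 to -13.8), also computed after the values were seen. Of the 78 genes, 45 had the commonest sequence of their anticodon, and 5 of these (11.1%) had a thresholded summit, as did 5 of the other 33 (15.2%). Genes on V with no anticodon assigned were counted among the 33. The genes at the strongest peaks on V were F57F5.t1 (284), ZC455.t1 (263), F15B9.t1 (255) and T23F1.t2 (220). The highest share was on II (24 of 57, 42.1%), followed by III (24 of 64, 37.5%), and the intervals of these 2 overlap.

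**Figure D4:**
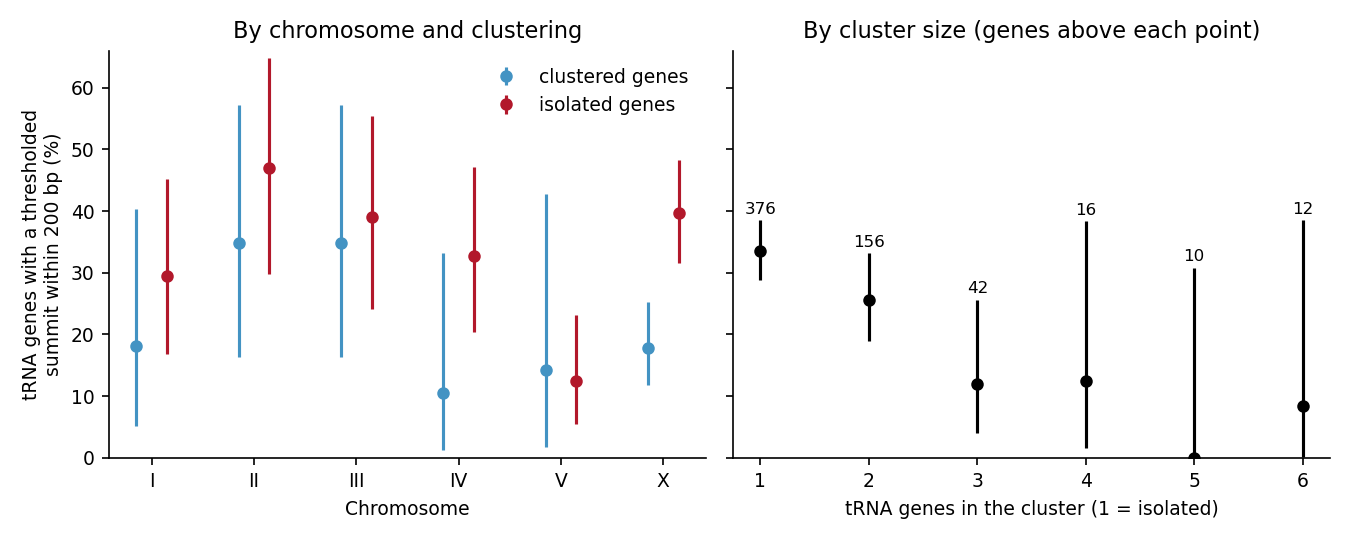
Percent of tRNA genes with a thresholded summit within 200 bp, with exact 95% intervals; left, clustered genes (blue) and isolated genes (red) by chromosome, and right, by the number of genes in the cluster, with the number of genes above each point. On X the share was 17.8% of clustered genes and 39.7% of isolated genes, and on V isolated genes were at 12.5%.

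The replicates ranked the members alike over the whole range of signal, and less so within its parts. Each deposited replicate list holds 30000 peaks, and 327 of the 390 members overlapped a peak in both lists. Over these 327, Spearman's rho between the ranks was 0.86, and it was 0.85 over the 289 that were the strongest member at a gene. Within the 160 thresholded members rho was 0.76, and within the 167 others found in both lists it was 0.59. For comparison, it was 0.68 over all thresholded peaks and 0.26 over all pooled peaks found in both lists. Points from 1 library share its depth and background, so this is a description. Among the 469 strongest peaks of each replicate, an overlapping peak was found in both replicates for 140 members (35.9%, 31.1 to 40.9), against 1.19% of all pooled peaks. Of the 160 thresholded members this held for 119 (74.4%, 66.9 to 80.9), and of the 309 other thresholded peaks for 176 (57.0%, 51.2 to 62.6). The thresholded list was made from these same replicates, so these shares do not measure agreement independently. The 2 sets also differed in pooled rank, with a median of 184 for thresholded members and 263 for the other thresholded peaks. The 21 members outside the thresholded list that overlapped a top peak of both replicates were all second peaks beside a stronger one. Among thresholded members the ranks lay farthest apart at F32B4.t1, a cysteine tRNA gene on I, with rank 302 in replicate 1 and rank 10919 in replicate 2.

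**Figure D5:**
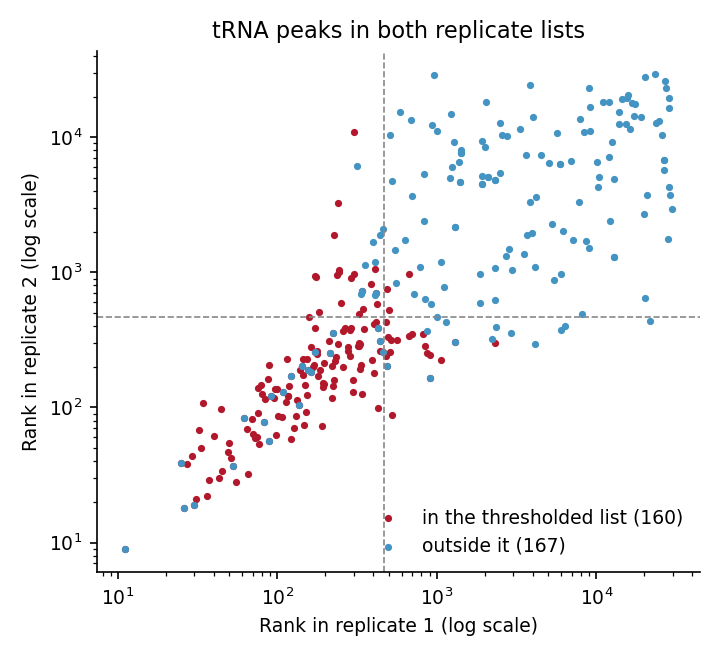
Rank in replicate 2 against rank in replicate 1 for the 327 members that overlap a peak in both lists, on log axes, with thresholded members in red, the others in blue and dashed lines at rank 469. Most thresholded members lie in the lower left corner, and blue points there are second peaks that overlap the replicate peak of a stronger neighbour.

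Genes of other small RNAs had peaks in part; apart from the spliced leader genes, those given here are transcribed by RNA polymerase III. RNase P and RNase MRP cut RNA precursors, RNase P those of tRNAs. The gene of the RNase P RNA, rpr-1 on I, had a peak with a signal of 232 (rank 59), and that of the RNase MRP RNA, mrpr-1 on II, one of 212 (rank 71). Of 5 genes of the signal recognition particle RNA, all had a pooled peak and 3 (60%, exact 95% interval 14.7 to 94.7) a thresholded one. The strongest was at srpr-2.1 on III (140, rank 162). No pooled peak lay within 200 bp of the 16 genes of 5S rRNA, which has an internal promoter of another kind and whose genes lie in a tandem array, or of the Y RNA gene yrn-1. Single-copy words were counted around tRNA genes only, so whether reads could be placed at the 5S genes is not known here. The part of promoter type or read placement in this absence was not tested. Of 30 spliced leader RNA genes (sls), which RNA polymerase II transcribes, 9 had a pooled peak and 3 (10%, 2.11 to 26.5) a thresholded one. The thresholded share over annotated nuclear genes other than piRNA genes was 2.39%, which the interval for the spliced leader genes includes. U6 snRNA genes were not analysed here. A single member had a snoRNA, snRNA or rRNA gene within 200 bp, and it was not in the thresholded list.

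For protein-coding genes on a fixed list, drawn up for the transcription machinery and tRNA maturation, the share with strong peaks was not resolved from that of all protein-coding genes. The list is broad, and a place on it does not show that a gene acts on tRNA. Of the 40 genes listed, 33 were found by name. Of these, 21 (63.6%, 45.1 to 79.6) had a pooled summit within 1000 bp of a 5′ end, against 51.2% of all protein-coding genes. Thresholded summits lay at 2 of the 33 (6.06%, 0.743 to 20.2), against 1.94% of all protein-coding genes. Both shares were above those of all protein-coding genes, and both intervals include them. The 2 thresholded genes were rpac-19, a subunit shared by RNA polymerases I and III (signal 124, rank 210, 86 bp from a 5′ end), and adr-1, an RNA-binding protein of the adenosine deaminase family (102, rank 296, 790 bp). Neither peak had a tRNA gene within 200 bp. The next by signal were xpo-1, a nuclear export receptor (59.5, rank 1623), and rtcb-1, the ligase of tRNA splicing (57.3, rank 1934). The largest polymerase III subunit gene rpc-1 had a peak of 51.8 (rank 3153), the TFIIIB component tbp-1 one of 29.8 and the repressor mafr-1, the worm Maf1, one of 41.1, all outside the thresholded list.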

How the data were processed

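The samples were 2 biological replicates of anti-GFP ChIP-seq from strain OP615, as given by the labels. The values used are the signal of column 7 and the summit offset of column 10 in the deposited ce11 peak lists: 1 list per replicate, 1 pooled over both, and 1 thresholded, which per the file headers and read-me texts the authors derived from the replicate and pooled lists. For the aligner, the caller and the scale of the signal, the entry is: not given in the sources used here. The depth is unknown. By signal, the thresholded list was checked to equal the top 469 of the pooled one, and no peak ran past the end of a chromosome.

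Summits were set against the Ensembl WBcel235 annotation, whose 612 tRNA spans are the same in RefSeq. Amino acids are from RefSeq products (none for 5 genes), and anticodons were read from the loop sequence. Intervals are exact Clopper-Pearson for shares and Newcombe for differences, at 95%. With 1 group there was no test. Single-copy words were counted in the genome sequence with lengths of 50 and 36 bases. Genes named in the text are those at the 12 strongest members and at the strongest member of each amino acid, those on either side of the threshold, the 2 densest clusters, the hosts of the 5 strongest intronic members and up to 4 machinery genes by signal; the other tryptophan and alanine copies, the pseudogenes, Y69A2AR.t2, F32B4.t1, acr-18, rpc-1, tbp-1 and mafr-1 were added after values were seen. The members and lists were chosen with earlier results of these data known. The counting was checked on simulated summits. Python with pandas and SciPy was used. Sequences are printed only for genes not on chromosome I and with no identical copy there.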

Additional observations from a re-analysis of the deposited data

How the results depend on the processing

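With distances of 0, 100 and 500 bp in place of 200 bp, the members numbered 198, 333 and 430, and 115, 158 and 160 of them were in the thresholded list. At 0 bp the median rank was the top 1.21%, 18.8% of tRNA genes had a thresholded summit and 44.9% of members were in the top of both replicates; at 100 and 500 bp the median rank was the top 1.80% and 4.86%, and at 100 bp the intron minus intergenic difference was 0.836 points. The cause of these shifts was not tested, other than that fewer or more summits were counted. A threshold at the upper 234 peaks left 97 members and 17.0% of genes, and X minus autosome was 7.32 points (1.32 to 13.5). Using only genes of unique sequence left 28 thresholded peaks, a median rank of the top 14.0%, 20.3% of genes, and an X minus autosome difference of -7.47 points. Without replicate 1 or 2, that difference ran from -1.95 to 4.22 points, thresholded members numbered 147 to 150, and the clustered minus isolated difference ran from -9.13 to -9.02 points. Without chromosome V, an alternative chosen after seeing the data, X minus autosome was -3.57 and intron minus intergenic 0.698 points; with isolated genes only, also chosen later, X minus autosome was 9.93 points. The share of members in the top of both replicates was 31.0% with overlap over at least 50% of the peak, 29.0% with summits within 100 bp and 46.2% with the 938 strongest peaks. The clustered minus isolated and unique minus repeated differences stayed negative in each alternative run, although their intervals reached 0 in some: -7.60 points (-14.8 to 0.410) with a cluster distance of 500 bp, -9.05 points (-20.8 to 6.07) over unique sequences only, and -4.44 points (-10.8 to 3.15) for unique minus repeated at 0 bp and -9.50 points (-17.7 to 0.0120) for the same without chromosome V. No paired analysis was possible because all samples form 1 group. Without total read counts, a gene with no peak may lie below what this depth could show, and repeated sequence limits what could be placed.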
